A study of Mus musculus with 20 samples.

Results

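The endoplasmic reticulum (ER) stress genes described here were 10 genes of the unfolded protein response: the chaperones and folding factors Hspa5, Hsp90b1, Pdia4, Sdf2l1, Dnajb9, Creld2 and Manf, and the transcription factors Xbp1, Atf4 and Ddit3. They were taken by gene symbol from the 24421 genes counted in each library, and all 10 passed the filter on low counts that left 14030 genes for testing. In bone marrow neutrophils, Dnajb9 and Ddit3 were lower with imiquimod (IMQ) in myeloid Bmal1 knockout mice at an adjusted p under 0.05 (edgeR). With IMQ in wild-type (WT) mice none of the 10 met that threshold. Over all tested genes 23.5% met it with IMQ in the knockouts and 3.95% in WT, so nothing about the set is read from these counts. The responses of Dnajb9 and Ddit3 were not shown to differ between the genotypes. No gene of the 10 differed between the genotypes at an adjusted p under 0.05, untreated or with IMQ, beside 0.207% and 0.292% of all genes. Inside the groups Hsp90b1, Pdia4, Creld2 and Sdf2l1 varied together from mouse to mouse, as did Sdf2l1 and Manf, while Hspa5 varied most closely with Dnajb9.

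Proteins bound for granules, membranes or secretion fold in the ER, and an excess of unfolded chains there starts the unfolded protein response. BiP, encoded by Hspa5, holds the sensors IRE1 (Ern1), PERK (Eif2ak3) and ATF6 inactive until it is drawn to unfolded proteins. IRE1 then splices Xbp1 mRNA into the form that encodes an active transcription factor, PERK phosphorylates eIF2alpha (Eif2s1) so that Atf4 is translated, and ATF4 drives Ddit3, which encodes CHOP. Neutrophils make most of their granule proteins early in their maturation in the bone marrow, and plasma cells depend on Xbp1 for antibody secretion.

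Polyadenylated RNA was sequenced from bone marrow neutrophils of 20 female mice, 5 in each of 4 groups, after magnetic negative selection. The study names more than 1 sequencer without assigning libraries to them, so a difference between sequencers could not be examined. WT mice were C57BL/6J, and the knockouts, named Bmal1 Mye-/- (KO in the plots), carried floxed Bmal1, listed in the files as Arntl, with a Cre recombinase inserted in Lyz2, which is active across myeloid cells and not in neutrophils alone. Mice of both genotypes were left untreated or had 5% IMQ cream, a Toll-like receptor agonist that induces lupus features, put on the ears 3 times per week for 6 weeks from 8 to 10 weeks of age, and the study's animals were killed in the morning at Zeitgeber time 1 to 4. The contrasts between genotypes and with IMQ draw on the same 4 groups, so that each group enters 2 of them. They ask how the ER stress genes differ with the genotype, with IMQ, and with both. WT mice were purchased, whereas the knockouts came from breeding pairs kept at the study's own facility. Loss of Bmal1 thus cannot be told apart from the Cre insertion in Lyz2 or from the source of the mice.

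Counts on genes ranged from 30782166 to 92613500 per library. Arntl averaged 0.721 CPM (counts scaled to library size) in untreated Bmal1 Mye-/- and 1.35 CPM in untreated WT, a difference that missed the threshold (edgeR adjusted p = 1), whereas Lyz2, where Cre is inserted, fell by 6.40 on the log2 scale (edgeR adjusted p = 1.47e-09). All 10 neutrophil markers found in the files were detected in every group, with summed levels of 72400 to 169000 CPM. The lowest sum was that of IMQ-treated Bmal1 Mye-/- 1, and the next was 105000 CPM in IMQ-treated WT 3. On the first principal component, mouse 5 of the IMQ-treated WT group and mouse 2 of the IMQ-treated knockouts lay among the untreated libraries, and IMQ-treated Bmal1 Mye-/- 1 stood apart on the second. The 6 plasma cell markers found, led by Jchain, summed to 292 to 1420 CPM in untreated libraries and to 28.1 to 315 CPM in IMQ-treated ones, so results below are also given without the libraries where such markers were high. In these bulk samples, fewer cells of a type and less RNA per cell cannot be told apart.

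Per kilobase of transcript, Atf4 and Hspa5 had the highest levels of the 10, at 120 ± 36 and 117 ± 23.8 CPM per kb (mean ± SD, n = 20 libraries), and did not differ beyond their spread. Hsp90b1, the ER paralog of HSP90, followed at 70.0 ± 19.7 CPM per kb and did not differ beyond the spread from Xbp1 at 60.3 ± 8.81. Ddit3 came next at 30.2 ± 9.23 CPM per kb, with Dnajb9 at 20.7 ± 9.83. Sdf2l1, Creld2, Manf and Pdia4 lay within 1 SD of each other, at 13.9, 13.9, 13.5 and 9.70 CPM per kb. The gaps below Hspa5 and below Xbp1 were the only steps between neighbours that exceeded the SD of both.

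Promoter sequence was given for 9 of the 10 genes, and Manf had no entry. The ER stress response element (ERSE) was searched as CCAAT and CCACG with 9 bases between them, on both strands, in windows from 250 bases before to 50 bases after each start (RefSeq, GRCm38.p6). It was found in 3 of the 9 genes and in 0.119% of 32851 promoters. The clock E-box CACGTG, the sequence that BMAL1 and CLOCK recognise, was found in 1 of the 9, Dnajb9, and in 7.15% of promoters. ERSE-II (ATTGG and CCACG with 1 base between), the UPRE TGACGTGG and the C/EBP-ATF composite site (TGATG, 1 base, AA) were in 0.0365%, 0.676% and 3.97% of promoters and in none of the 9. The 250 bases before the start are shown for the 4 genes with a match, which include the most abundant chaperone and the gene with the largest fitted change, with each match in capitals:
Hspa5 (chr2:34771840-34772089, plus strand): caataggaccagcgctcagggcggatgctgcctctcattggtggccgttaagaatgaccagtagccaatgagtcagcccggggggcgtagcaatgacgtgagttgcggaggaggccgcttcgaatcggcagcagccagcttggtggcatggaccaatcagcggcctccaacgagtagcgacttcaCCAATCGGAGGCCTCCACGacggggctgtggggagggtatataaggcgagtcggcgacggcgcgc
Hsp90b1 (chr10:86705445-86705694, minus strand): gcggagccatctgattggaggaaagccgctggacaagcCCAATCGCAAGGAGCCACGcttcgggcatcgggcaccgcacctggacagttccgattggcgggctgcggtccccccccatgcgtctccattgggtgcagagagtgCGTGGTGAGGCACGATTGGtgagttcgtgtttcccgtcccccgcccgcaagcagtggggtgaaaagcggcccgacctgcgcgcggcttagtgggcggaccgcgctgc
Creld2 (chr15:88819396-88819645, plus strand): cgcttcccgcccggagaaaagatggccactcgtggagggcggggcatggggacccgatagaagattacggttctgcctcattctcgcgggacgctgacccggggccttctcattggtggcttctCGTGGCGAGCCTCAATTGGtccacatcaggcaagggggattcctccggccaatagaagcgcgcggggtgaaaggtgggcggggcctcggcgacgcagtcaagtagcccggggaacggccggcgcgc
Dnajb9 (chr12:44210069-44210318, minus strand): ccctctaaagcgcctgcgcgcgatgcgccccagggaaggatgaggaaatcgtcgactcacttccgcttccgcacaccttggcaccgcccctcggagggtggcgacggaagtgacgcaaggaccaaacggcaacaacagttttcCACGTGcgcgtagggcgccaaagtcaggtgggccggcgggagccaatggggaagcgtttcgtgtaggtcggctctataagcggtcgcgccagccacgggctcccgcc
The Hspa5 match began 65 bases before the start. Hsp90b1 held 1 match at 212 bases and 1 in the opposite orientation at 107 bases, Creld2 held 1 in the opposite orientation at 126 bases, and the E-box of Dnajb9 lay at 107 bases. A match is a description of these letters only, and binding was not measured.

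**Figure D1:**
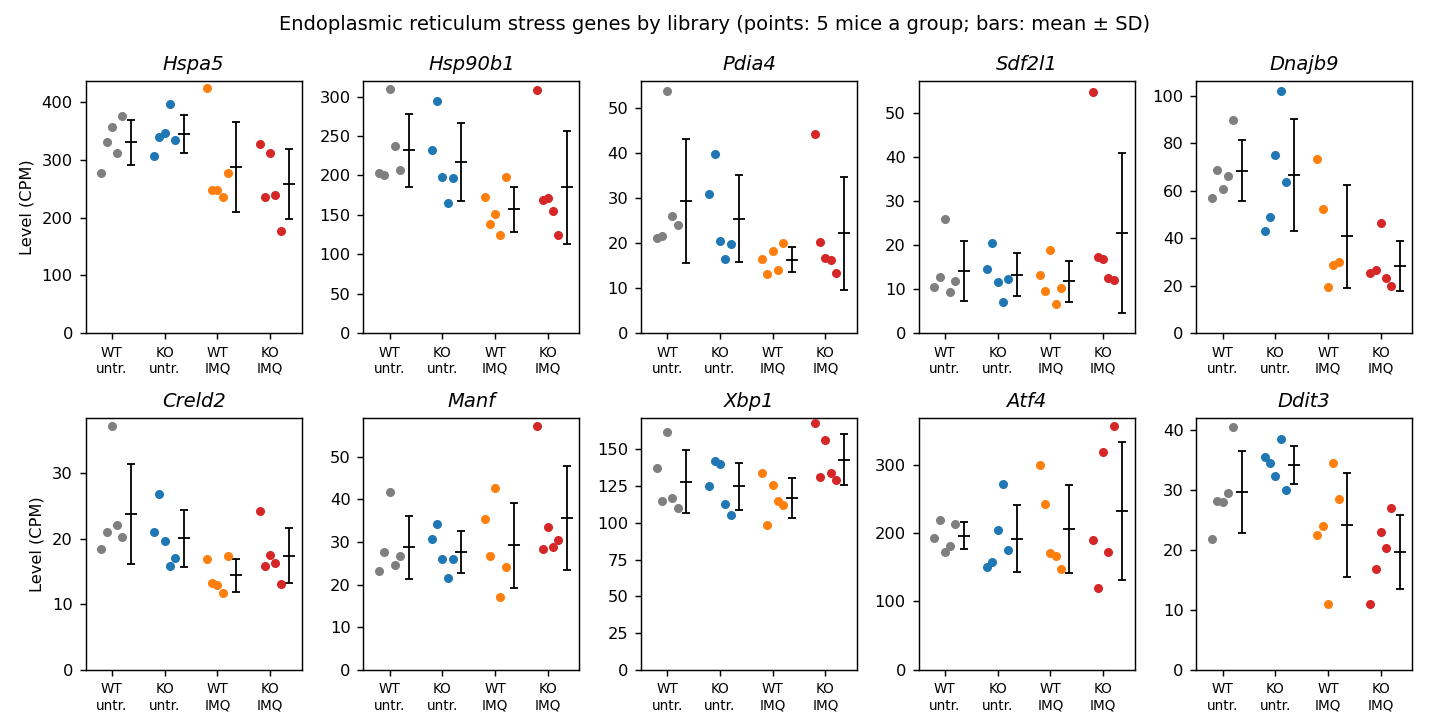
Levels of the 10 ER stress genes in CPM (vertical axes, from 0) in the 20 libraries, by group on the horizontal axes. Points are single mice and bars the mean ± SD of 5. In Ddit3, all 5 IMQ-treated Bmal1 Mye-/- mice lie below all 5 untreated ones, and single high libraries stand out in Pdia4, Sdf2l1, Manf and Creld2.

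IMQ against untreated in Bmal1 Mye-/- was the only comparison in which genes of the set passed the threshold. Dnajb9 and Ddit3 fell, 2 of the 10, beside 23.5% of all tested genes called in the same contrast (9.04% lower and 14.4% higher), and with 10 genes nothing about the set is read from that count. Over all genes the 3292 calls ranged from 1612 to 4499 with each library left out, and were 1612 without untreated Bmal1 Mye-/- 4, 2063 without untreated 1, 2160 without untreated 2, 2190 without IMQ-treated 1 and 1765 without IMQ-treated 5. Groups did not overlap for 1 of the 10, against 20.1% of all genes. The median log2 fold change of the 10 genes was -0.21, and over all tested genes it was 0.02.

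Dnajb9 (GRCm38 chr12:44205897-44210068, RefSeq) encodes ERdj4, a BiP cochaperone that helps clear misfolded proteins and restrains IRE1. Its levels in untreated Bmal1 Mye-/- 1 to 5 were 42.9, 48.8, 75.1, 102 and 63.6 CPM, and in IMQ-treated Bmal1 Mye-/- 1 to 5 they were 25.5, 26.7, 46.3, 23.0 and 19.8 CPM. The treated mice were lower except for mouse 3, whose level lay between the 2 lowest untreated values. The fitted change was -1.24 on the log2 scale (SE 0.32, 95% CI -1.90 to -0.57, edgeR adjusted p = 0.0131), a fall from a mean of 66.6 ± 23.7 to 28.3 ± 10.5 CPM (SD, n = 5). The fall remained under the threshold in 29 of 30 alternatives. These include leaving out each WT library, which lies outside this contrast and touches it only through the shared fit. The exception left out the 3 untreated libraries with the highest plasma cell markers, where the fitted change was -1.51 and edgeR adjusted p = 0.0548, with a range of 0.00137 to 0.0548 over the alternatives.

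Ddit3 (chr10:127290793-127296291) encodes CHOP, the transcription factor that ATF4 induces in prolonged stress. It measured 35.4, 34.5, 32.3, 38.4 and 30 CPM in untreated Bmal1 Mye-/- 1 to 5, and 10.9, 16.8, 23.0, 20.2 and 27.0 CPM in the IMQ-treated ones. The groups did not overlap, and IMQ-treated mouse 1 was the lowest of the 10. Ddit3 fell by 0.80 on the log2 scale (SE 0.25, 95% CI -1.32 to -0.28, edgeR adjusted p = 0.0294). This call was less stable than that of Dnajb9: it was kept in 23 of 30 alternatives and was lost without IMQ-treated Bmal1 Mye-/- 1 (-0.63, adjusted p = 0.0752 in edgeR), without IMQ-treated 2, without untreated 1, 2 or 4, and in both fits that left out several libraries, with adjusted p from 0.0075 to 0.12 over all alternatives. The alternatives that kept it include leaving out each WT library, which lies outside this contrast. IMQ-treated Bmal1 Mye-/- 1 also had the highest granulocyte precursor marker sum, 1650 CPM, and inside the groups that sum went against Ddit3 (r = -0.62, rho = -0.65, permutation p = 0.0138 and 0.00686, adjusted p = 0.0516 and 0.0412, and r = -0.56 without the 2 farthest libraries). The part of those cells in the result was not tested beyond leaving that library out. Ddit3 overlaps Mars1 and Mbd6 in RefSeq, and the strand setting of the counting is not given in the sources used here, so reads shared with them cannot be told apart.

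The other folding genes did not pass the test in Bmal1 Mye-/- mice. Hspa5 (chr2:34772090-34776529) measured 307, 339, 346, 397 and 335 CPM untreated and 328, 236, 312, 239 and 177 CPM under IMQ, with a fitted change of -0.42 (95% CI -0.77 to -0.06, edgeR adjusted p = 0.0758). Its ranges overlapped because treated mice 1 and 3 lay among the untreated ones. It passed in 2 of 30 alternatives, with DESeq2 (adjusted p = 0.0402) and without IMQ-treated WT 1, and adjusted p ran from 0.0402 to 0.293 over them. Hspa5 overlaps Rabepk.

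Sdf2l1 (chr16:17130138-17132383), a partner of BiP in the ER lumen, measured 14.5, 20.5, 11.5, 7.15 and 12.3 CPM in untreated Bmal1 Mye-/- and 54.7, 17.2, 16.9, 12.4 and 12.0 CPM with IMQ. A single treated mouse, number 1, stood far above the rest. The fitted change was 0.78 (95% CI -0.08 to 1.63, edgeR adjusted p = 0.162) and 0.16 without that mouse. Manf (chr9:106888753-106891938), a secreted survival factor induced by ER stress, showed the same mouse at 57.2 CPM against 28.3 to 33.5 CPM in the others, and its fitted change was 0.36 with it and 0.14 without it. In the same library the monocyte markers summed to 1520 CPM and the granulocyte precursor markers to 1650 CPM, against at most 554 and 1180 CPM in the other 19. Their part in the result was not tested.

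Hsp90b1, Pdia4 and Creld2 had fitted changes of -0.23, -0.21 and -0.21 in Bmal1 Mye-/- mice, with 95% CIs from -0.67 to 0.21, -0.88 to 0.47 and -0.63 to 0.21. Pdia4 (chr6:47796141-47813512), a protein disulfide isomerase, turned to 0.011 when counts were scaled to library totals without TMM factors. Leaving out the 3 libraries rich in plasma cell markers brought Hsp90b1 to -0.015, Creld2 to -0.005 and Pdia4 to 0.22. Untreated Bmal1 Mye-/- 1 and 2, left out there, also had the highest untreated knockout levels of these genes (Pdia4 30.8 and 39.7 CPM, others 16.5 to 20.5). Leaving them out raises the fitted changes whatever their markers, so this cannot show the part of plasma cells. Among the transcription factors, Xbp1 (chr11:5520641-5525993) had a fitted change of 0.20 (95% CI -0.06 to 0.46) and Atf4 (chr15:80255184-80257545) one of 0.27 (95% CI -0.26 to 0.81). Atf4 spread more widely under treatment, with 190, 120, 318, 172 and 357 CPM in the IMQ-treated mice against 150, 157, 205, 272 and 175 CPM untreated. The files hold 1 count per gene, so spliced Xbp1 was not measured.

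**Figure D2:**
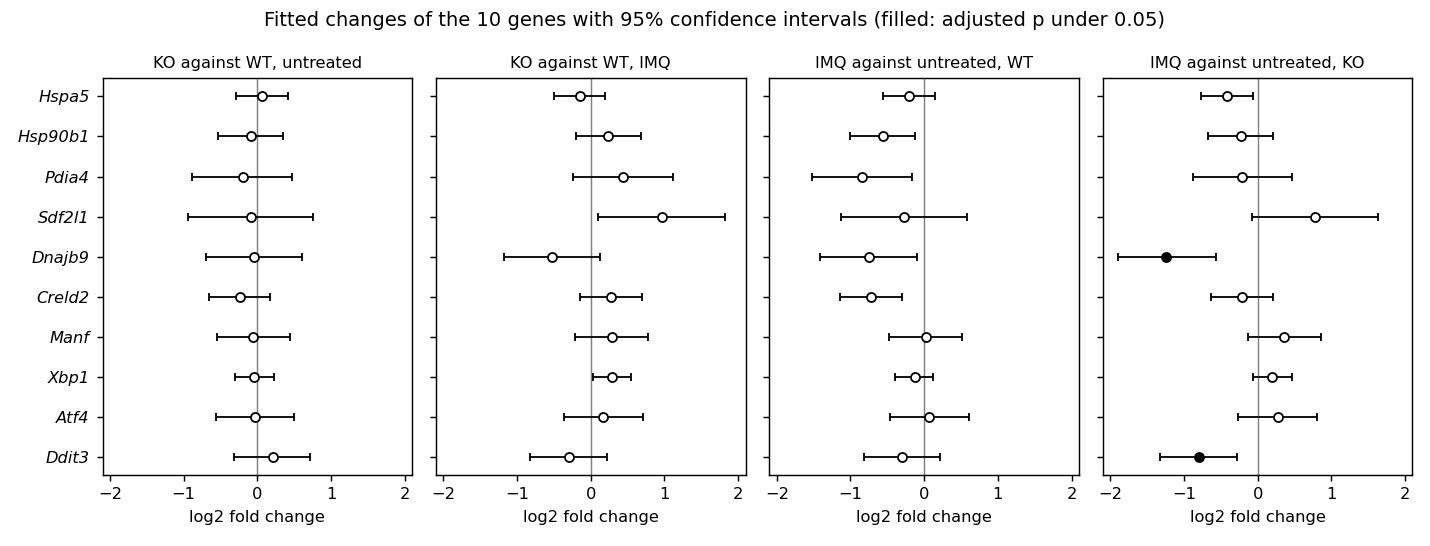
Fitted log2 fold changes (horizontal axes) of the 10 ER stress genes with 95% confidence intervals in 4 contrasts, from edgeR. Filled points passed an adjusted p under 0.05: only Dnajb9 (-1.24) and Ddit3 (-0.80) with IMQ in KO are filled, and every interval of the untreated genotype contrast spans 0.

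In WT mice, no gene of the 10 passed the test for IMQ against untreated (edgeR, 0 of 10), beside 3.95% of all genes (2.34% higher and 1.60% lower). At an unadjusted p under 0.05 there were 4, Hsp90b1, Pdia4, Dnajb9 and Creld2, each with a negative fitted change, and DESeq2 called 1, Creld2. For 3 of the 10 the groups did not overlap, against 6.43% of all genes. The median log2 fold change of the 10 was -0.28 and that of all genes 0.03. Of the calls over all genes 59.4% were higher, which became 49.5% without TMM factors and 27.1% in a linear model on log2(CPM + 0.1).

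Creld2 (chr15:88819646-88826681), a folding factor with disulfide isomerase activity, came nearest to the threshold. It measured 18.4, 21.0, 37.2, 22.1 and 20.3 CPM in untreated WT 1 to 5, and 16.9, 13.2, 13, 11.7 and 17.3 CPM in IMQ-treated WT. The groups did not overlap, and untreated mouse 3 was the highest by a wide margin. The fitted change was -0.72 (SE 0.20, 95% CI -1.14 to -0.30), and edgeR adjusted p, 0.05 after rounding, lay just above the threshold. It passed in 7 of 30 alternatives, among them DESeq2 (adjusted p = 0.0112), and without untreated WT 3 the fitted change was -0.51 (edgeR adjusted p = 0.15), with a range of 0.0112 to 0.162.

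Pdia4 showed the same library even more clearly, with 21.1, 21.5, 53.7, 26.0 and 24.0 CPM in untreated WT and 16.4, 13.2, 18.2, 13.9 and 19.9 CPM with IMQ. No treated mouse reached the lowest untreated one. The fitted change was -0.84 (95% CI -1.52 to -0.16, edgeR adjusted p = 0.129) and -0.51 without untreated WT 3. Hsp90b1 (chr10:86690841-86705444) ranged from 201 to 310 CPM untreated and from 125 to 198 CPM treated, also without overlap, with a fitted change of -0.56 (95% CI -1.01 to -0.12, edgeR adjusted p = 0.122). It passed in 1 of 30 alternatives, without IMQ-treated Bmal1 Mye-/- 1, a library outside this contrast that enters the shared estimate of spread. Plasma cell markers moved with these 3 genes: 5 of 6 fell with IMQ in WT, beside 1.6% of all genes called lower. Jchain went from 577 to 98.0 CPM (edgeR adjusted p = 0.0298), and untreated WT 3 had the highest plasma cell marker sum of all libraries, 1420 CPM. Its granulocyte precursor sum, 1180 CPM, was also the highest of the untreated libraries. None of the 6 plasma cell markers was at 0 in a whole group, and the part of either cell type in the result was not tested.

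Dnajb9 in WT measured 56.8, 68.9, 60.8, 66.1 and 89.9 CPM untreated and 73.2, 52.2, 19.2, 28.6 and 30.1 CPM with IMQ. Treated mice 3 to 5 were below every untreated mouse, whereas treated mouse 1 exceeded all but 1 of them. The fitted change was -0.75 (95% CI -1.41 to -0.10, edgeR adjusted p = 0.161), and the difference between its changes in the genotypes, tested as an interaction, was -0.48 (95% CI -1.41 to 0.44). Ddit3 in WT ran from 21.7 to 40.5 CPM untreated and from 11 to 34.5 CPM treated, with a fitted change of -0.30 (95% CI -0.82 to 0.22) and an interaction of -0.50 (95% CI -1.24 to 0.23). The response of neither gene was thus shown to differ between the genotypes.

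Of the remaining genes in WT mice, Hspa5 had a fitted change of -0.21 (95% CI -0.56 to 0.15), with IMQ-treated mouse 1 at 424 CPM and the other 4 at 236 to 277 CPM. Sdf2l1 and Xbp1 had fitted changes of -0.27 and -0.13. Manf at 0.02 and Atf4 at 0.07 had no steady sign, and both became negative without TMM factors (-0.010 and -0.001). None of these 5 passed in any of the 30 alternatives.

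Between the genotypes without IMQ, the 10 genes were close together. Fitted differences of Bmal1 Mye-/- from WT ran from -0.24 (Creld2, 95% CI -0.66 to 0.17) to 0.21 (Ddit3, 95% CI -0.31 to 0.72), and the narrowest interval was that of Xbp1, -0.30 to 0.22. No gene of the 10 passed in edgeR or DESeq2, and 0 had an unadjusted p under 0.05, beside 0.207% of all genes called. No gene's groups failed to overlap, against 1.52% of all genes. For Sdf2l1, with 10.5, 12.7, 25.9, 9.39 and 11.8 CPM in WT and a fitted difference of -0.09, the interval of -0.94 to 0.76 still allows a change of nearly 1 log2 unit.

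Under IMQ the fitted differences between the genotypes were wider, from -0.53 for Dnajb9 (95% CI -1.18 to 0.13) to 0.96 for Sdf2l1 (95% CI 0.10 to 1.82). No gene of the 10 passed (edgeR and DESeq2, 0 each), beside 0.292% of all genes. That background is 41 genes, and it became 3129 without IMQ-treated WT 3 and 280 without IMQ-treated Bmal1 Mye-/- 4, with a lowest value of 20 without IMQ-treated WT 4. At an unadjusted p under 0.05 there were 2, Sdf2l1 (edgeR adjusted p = 0.235) and Xbp1 (0.29, 95% CI 0.03 to 0.55, edgeR adjusted p = 0.233). None of the 10 had groups without overlap, against 1.07% of all genes.

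Sdf2l1 under IMQ measured 13.2, 9.57, 18.8, 6.52 and 10.2 CPM in WT against 54.7, 17.2, 16.9, 12.4 and 12.0 CPM in Bmal1 Mye-/-. Its difference was 0.34 without IMQ-treated Bmal1 Mye-/- 1, with edgeR adjusted p = 0.704 (0.0505 to 0.704 over the alternatives). Without that mouse Pdia4 went from 0.44 to 0.034 and Hsp90b1 from 0.24 to -0.010. Xbp1 was 134, 98.3, 126, 115 and 112 CPM in WT and 168, 131, 156, 134 and 129 CPM in Bmal1 Mye-/-, so that the lowest knockout mouse lay above every WT mouse but the highest. The difference stayed between 0.24 and 0.50 over the alternatives. The sign of Hspa5, -0.15, was turned by scaling to total counts (0.087).

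The interaction of genotype and IMQ was called for no gene of the 10 and for none of all 14030 genes (edgeR, 0.0%), with 0 and 721 at an unadjusted p under 0.05, and DESeq2 also called 0. The widest estimate was that of Sdf2l1 (1.05, 95% CI -0.16 to 2.26). Dropping the TMM factors moved the median of all genes from 0.03 to 0.23 for the genotypes under IMQ, from 0.02 to 0.16 for IMQ in Bmal1 Mye-/- and from 0.01 to 0.20 for the interaction, so changes under that scaling are relative to those shifts.

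Within the groups, each library's deviation from its group mean in log2 CPM was correlated for the 45 pairs of the 10 genes over 20 libraries, with permutations inside groups. After Benjamini-Hochberg adjustment over the 45 pairs, 19 had an adjusted permutation p under 0.05 for r, 17 of them positive. Many genes vary together in these libraries, and 13 of the 19 lay outside the central 90% of r over all tested genes for both members of the pair. Hsp90b1 and Pdia4 had r = 0.94 and rho = 0.91 (permutation p = 1e-05 each, the smallest that 100000 permutations can give, adjusted p = 0.00015 and 0.000225), and r = 0.89 without the 2 farthest libraries. Among 14029 other genes Pdia4 ranked 1 by its correlation with Hsp90b1 and Creld2 ranked 3, where the central 90% of all genes ran from r = -0.59 to 0.60. Sdf2l1 and Manf, for which that range was wider (-0.74 to 0.73 and -0.75 to 0.74), had r = 0.93 and rho = 0.85 (permutation p = 1e-05 and 0.0001, adjusted p = 0.00015 and 0.0015), and r = 0.90 without the 2 farthest. Sdf2l1 also went with Pdia4, Hsp90b1 and Creld2 (r = 0.88, 0.85 and 0.79, adjusted permutation p = 0.00099, 0.00322 and 0.00506). Without the 2 farthest libraries these were 0.75, 0.72 and 0.63. Manf was less close to those 3 genes: its r was 0.72 with Hsp90b1, 0.75 with Pdia4 and 0.71 with Creld2, near the edge of its own range. Without the 2 farthest libraries its r was 0.57, 0.54 and 0.51.

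By r, Hspa5 was less close to these 5 genes, but its central 90% over all genes was also narrow, from -0.39 to 0.37. Its r with Creld2, Hsp90b1, Manf and Sdf2l1 lay above that range, at 0.51, 0.49, 0.42 and 0.40. With Pdia4 it was 0.33, inside the range, and none of these pairs passed. For Hsp90b1 rho was 0.43 (permutation p = 0.0669 for r and 0.0845 for rho). The strongest tie of Hspa5 among the 10 was to Dnajb9, with r = 0.69 and rho = 0.64 (permutation p = 0.00198 and 0.00432, adjusted p = 0.00959 and 0.0177), 0.56 without the 2 farthest libraries. Dnajb9 in turn had r = -0.11 with Hsp90b1 and 0.58 with Atf4 (rho 0.60). Both pairs with a negative r that passed involved Ddit3, and both lay inside the central 90% of Ddit3 over all genes (-0.73 to 0.76). With Sdf2l1 r was -0.66 and rho -0.63 (permutation p = 0.00594 and 0.00569, adjusted p = 0.0157 and 0.0213), and -0.60 without the 2 farthest. With Manf it was -0.65 and rho -0.43 (permutation p = 0.0153 and 0.088), and -0.33 without the 2 farthest, so that relation rests on those libraries. By rho, Pdia4 and Atf4 also passed (-0.56, permutation p = 0.0137, adjusted p = 0.0384), with r = -0.47 (adjusted p = 0.137), and Manf and Ddit3 did not. Atf4 and its target Ddit3 had r = 0.29 (permutation p = 0.339). All pairs share the libraries, their depth and their cell makeup.

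**Figure D3:**
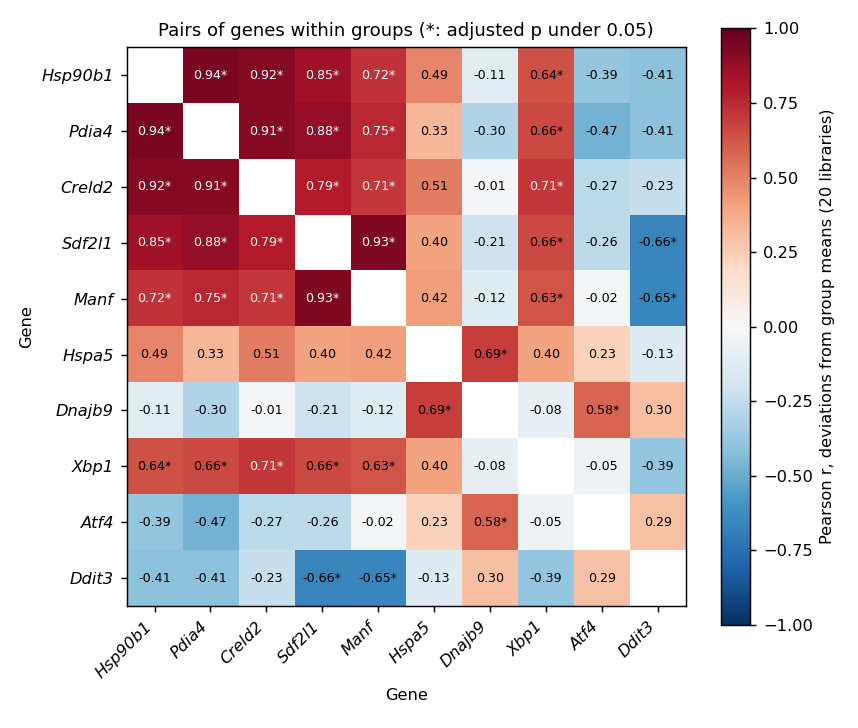
Pearson r of the deviations from the group means in log2 CPM for each pair of the 10 genes (both axes list genes, color gives r, 20 libraries); an asterisk marks an adjusted permutation p under 0.05. Hsp90b1, Pdia4, Creld2, Sdf2l1 and Manf have r from 0.71 to 0.94 with each other, and 0.63 to 0.71 with Xbp1, while Hspa5 is closest to Dnajb9 (0.69).

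Marker sums moved with part of the set inside the groups. Of 30 relations tested between the 10 genes and 3 marker sums, the plasma cell sum had an adjusted permutation p under 0.05 for r with 4 genes. It was positive with Pdia4 (r = 0.60, rho = 0.57, permutation p = 0.00157 and 0.00833, adjusted p for r = 0.0245), Hsp90b1 (r = 0.56) and Creld2 (r = 0.59), and negative with Atf4 (r = -0.56, rho = -0.68). By rank Hsp90b1 (rho = 0.44, adjusted permutation p = 0.217) and Creld2 (rho = 0.53, adjusted permutation p = 0.0968) did not pass. Without the 2 libraries farthest on the marker sum, r was 0.52 for Pdia4, 0.43 for Hsp90b1 and 0.40 for Creld2. The granulocyte precursor sum went with Sdf2l1 (r = 0.70, rho = 0.67, permutation p = 0.00187 and 0.00301) and Manf (r = 0.67), and the monocyte sum with Pdia4 (r = 0.64, 0.30 without the 2 farthest). The plasma cell sum had r = -0.09 with Hspa5 and -0.33 with Dnajb9. The part of these cells in the results was not tested, and leaving libraries out does not separate it from other traits of those libraries.

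**Figure D4:**
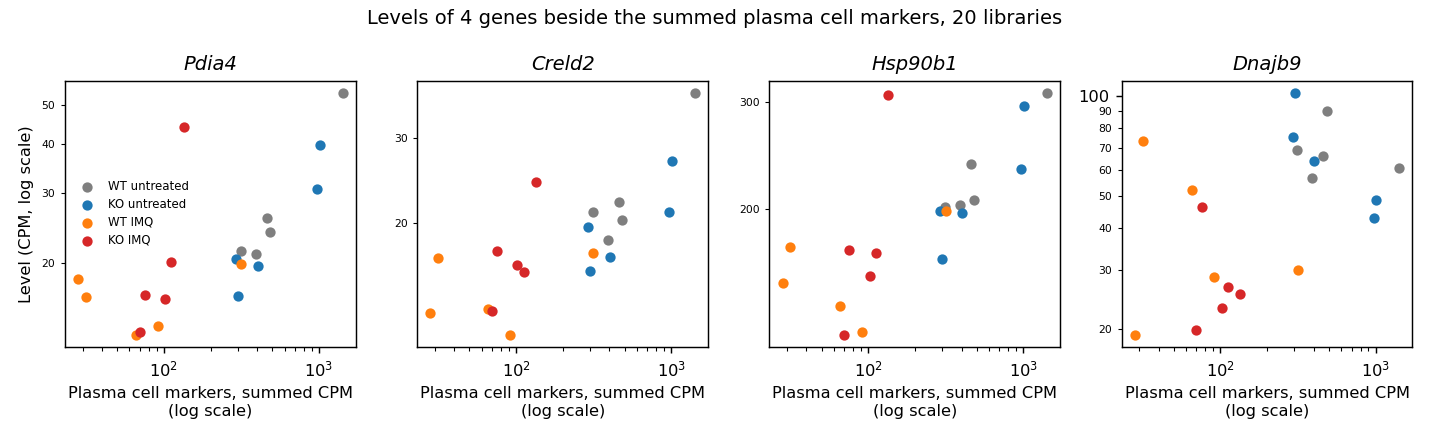
Levels of 4 ER stress genes in CPM (vertical axes, log scale) against the summed CPM of 6 plasma cell markers (horizontal axes, log scale) in 20 libraries, colored by group. Untreated WT 3 lies farthest right at 1420 CPM and highest for Pdia4 (53.7 CPM), Creld2 (37.2 CPM) and Hsp90b1 (310 CPM), but not for Dnajb9 (60.8 CPM).

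Around the 10 genes, 82 others of the same pathway were followed in 5 lists, and all of them were tested. With IMQ in Bmal1 Mye-/- mice 24 of 82 (29.3%) were called, 16 higher and 8 lower, beside 23.5% of all genes. In WT mice 5 of 82 were called, 2 higher and 3 lower (0 and 3 without TMM factors), beside 3.95%. With each library left out, that count ranged from 0 to 12 and the calls over all genes from 48 to 1989, with 12 and 1989 without IMQ-treated WT 5, 9 and 949 without IMQ-treated Bmal1 Mye-/- 1, and 0 and 48 without untreated WT 2. Between the genotypes and for the interaction edgeR called 0 of 82 (DESeq2 called 3 under IMQ and 0 otherwise), with 0, 12 and 3 at an unadjusted p under 0.05 in untreated mice, in IMQ-treated mice and for the interaction. When the 3 libraries rich in plasma cell markers were left out, 0 of 82 were called in either genotype and 114 of all genes in Bmal1 Mye-/-.

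The sensors and their partners gave 3 calls of 7 with IMQ in Bmal1 Mye-/- mice, beside the same 23.5% of all genes. Eif2ak3, which encodes PERK, fell from 102 ± 13 to 57.7 ± 16.8 CPM (SD, n = 5, log2 change -0.83, SE 0.20, edgeR adjusted p = 0.00955). Eif2s1, the eIF2alpha that PERK phosphorylates, rose by 0.84 on the log2 scale, and Mbtps2, a protease that frees ATF6, rose by 0.56. The other sensors did not pass: Ern1 had 0.15 (95% CI -0.17 to 0.48) and Atf6 had 0.24 (95% CI -0.05 to 0.52). In WT the Eif2ak3 change was -0.31 (95% CI -0.72 to 0.09).

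Of the ATF4 target genes 9 of 22 were called in Bmal1 Mye-/-, with 8 higher, beside 23.5% and 14.4% of all genes. Their median change was 0.45, and that of all genes 0.02. They included Mthfd2 and Psat1 of one-carbon and serine synthesis, the alanyl-tRNA synthetase Aars, the amino acid transporter Slc7a5, the factor Atf5 and the stress regulator Nupr1, which rose by 1.98, 1.63, 1.97, 1.70, 2.02 and 1.74 on the log2 scale (edgeR adjusted p from 0.00558 to 0.0152). Mthfd2 went from 17.9 ± 2.95 to 70.4 ± 47.8 CPM, and the treated mice spread from 23.6 to 142 CPM. Groups did not overlap for 4 of the 22, against 20.1% of all genes. Mthfd2 and Aars did not overlap, whereas Atf5, Nupr1, Psat1 and Slc7a5 did. Treated mice spread from 10.6 to 108 CPM for Atf5 and from 6.54 to 50.3 CPM for Psat1. Untreated Bmal1 Mye-/- ranged from 9.45 to 11.8 and from 3.91 to 6.55 CPM. In contrast to these, Ddit3 fell, as given above, and so did the cystine transporter Slc7a11 (-1.52, edgeR adjusted p = 0.0369). The Atf4 mRNA itself was not called. In the same contrast 4 of 6 monocyte markers were called higher, beside 14.4% of all genes. Their sum was 1520 and 554 CPM in IMQ-treated Bmal1 Mye-/- 1 and 2. It was 146, 250 and 112 CPM in treated mice 3 to 5, against 267 to 366 CPM in untreated Bmal1 Mye-/-. The median sum was 250 CPM treated and 310 CPM untreated. The part of these cells in the result was not tested. In WT none of the 22 was called (edgeR, 9 at an unadjusted p under 0.05), and Slc7a5 had 1.55 with an adjusted p = 0.0565 in edgeR.

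Folding genes gave 6 calls of 20 in Bmal1 Mye-/-, with 5 higher, beside 23.5% and 14.4% of all genes. Dnajc10, an ER disulfide reductase, rose from 39.7 ± 1.84 to 70.3 ± 18.5 CPM (log2 change 0.82, edgeR adjusted p = 0.00736) and in WT from 41.5 ± 2.05 to 72.1 ± 21.7 CPM (0.79, edgeR adjusted p = 0.0235). P4hb (0.55), Ppib (0.39) and Fkbp2 (0.88) rose in Bmal1 Mye-/-, as did Ero1l by 0.28. Cnpy3, a chaperone for Toll-like receptors, fell in both genotypes, by 0.37 in Bmal1 Mye-/- and by 0.53 in WT, and Cnpy2 fell in WT by 0.66.

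Of the genes of ER-associated degradation, 5 of 16 were called lower and none higher in Bmal1 Mye-/-, beside 9.04% of all genes called lower. Fitted changes of the list were above 0 for 5 of 16, with a median of -0.10. Syvn1, the ubiquitin ligase HRD1, fell by 0.43 on the log2 scale, the lectin Os9 by 0.37 and the channel component Derl1 by 0.23. Derl3 fell in both genotypes, by 1.83 in Bmal1 Mye-/- and by 2.24 in WT, from 6.84 ± 4.63 to 1.44 ± 1.35 CPM in the latter. Plasma cell markers fell in the same contrasts, 3 of 6 in Bmal1 Mye-/- and 5 of 6 in WT, beside 9.04% and 1.6% of all genes called lower. Their part in the result was not tested. Of 17 translocation genes only Ssr3 was called, 1 beside 23.5% of all genes in Bmal1 Mye-/- and 3.95% in WT, higher in both genotypes (0.31 in Bmal1 Mye-/- and 0.32 in WT).

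**Figure D5:**
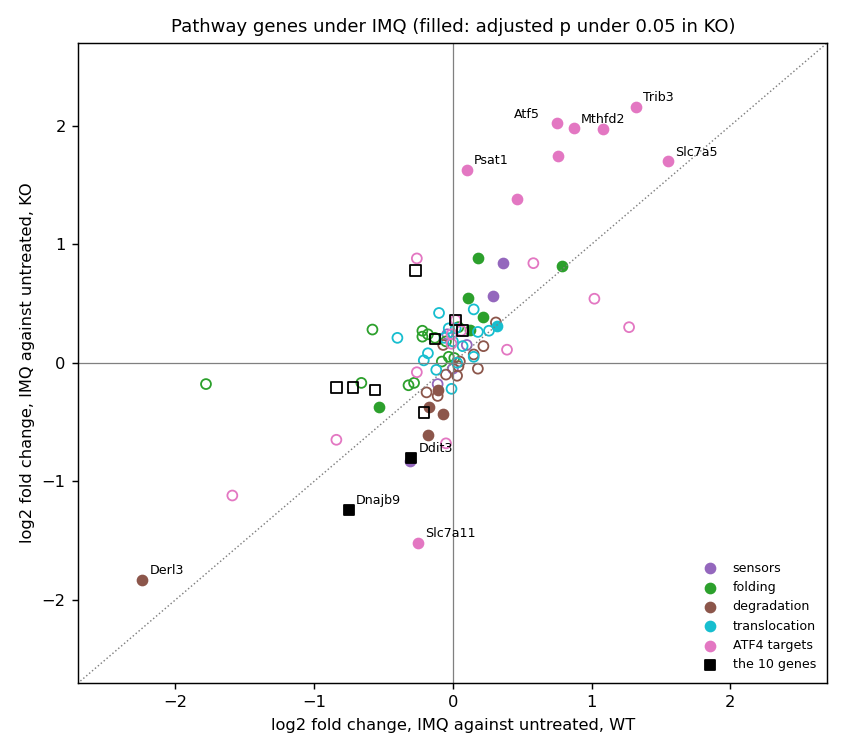
Log2 fold changes with IMQ in WT (horizontal axis) and in KO (vertical axis) for 82 pathway genes (circles, colored by list) and the 10 ER stress genes (squares), filled where adjusted p in KO was under 0.05. The dotted line marks equal change. The ATF4 targets Trib3 (2.16 in KO) and Atf5 (2.02) lie at the top, Slc7a11 (-1.52), Derl3 (-1.83) and Dnajb9 (-1.24) at the bottom.

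Over the 20 libraries, the genes outside the set whose log2 CPM was most like that of Hspa5 were Snord47 (r = 0.82), Gas5 (0.79), Dusp2 (0.78), Arf4 (0.77) and Btd (0.76). For Ddit3 they were Itgal (0.93), Zfand3 (0.91), Sesn2 (0.91), Ell2 (0.90) and Basp1 (0.90). Snord47 is encoded inside Gas5, so its reads and those of its host are not independent. Sesn2, a stress-induced sestrin on the ATF4 target list, had a change of -0.68 with IMQ in Bmal1 Mye-/- that missed the threshold (edgeR adjusted p = 0.0588), and these likenesses, given without a test, share libraries, groups and depth.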

How the data were processed

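Neutrophils isolated from the bone marrow by negative selection gave 1 poly(A) library per mouse, 20 in all. The deposited files hold raw counts per gene, made by the authors without normalization. The submitters' processing notes name STAR 2.7.8a, HTSeq 2.0.1 and mm10, whereas the study's methods name TopHat for its RPKM values, and annotation and strand setting are not given in the sources used here. Reads on no feature, 51.85% to 57.79% of those a file accounts for, were left out. A table joining the same counts over the series was not used, since its columns carry file names rather than sample titles.

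The tests used edgeR 4.0.16 under R 4.3.3 (filterByExpr, TMM factors of 0.854 to 1.38, quasi-likelihood test, 1 model of 4 groups of 5). Contrasts were adjusted by the Benjamini-Hochberg method over 14030 genes at a threshold of 0.05. Standard errors come from the F statistic and 95% intervals from its degrees of freedom. CPM are scaled by TMM factors, and levels per kb use RefSeq transcript lengths. Fits were tested on simulated data with the same dispersion for every gene and no outlying mice, so that test does not show their error rates in these libraries. Library totals of 30782166 to 92613500 counts make counting error minor for most genes next to the differences between mice. Alternatives were RLE factors, no TMM factors, DESeq2 1.42.0, no filter, 10 counts in every library, only the 2 groups compared, a replicate block, an ordinary linear model (fitted in limma 3.58.1) on log2(CPM + 0.1) without TMM factors, close to the study's methods, and each library left out. Leaving out IMQ-treated WT 5 and Bmal1 Mye-/- 2, or untreated WT 3 and Bmal1 Mye-/- 1 and 2, was added after seeing the data.

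The 10 genes, the lists and the markers were chosen with earlier results of these data known. Named were all 10 genes, Arntl and Lyz2, the 3 sensors, of each pathway list at most 6 genes called in any contrast in order of adjusted p, and the 5 genes most like Hspa5 and Ddit3. Trib3, Ero1l, Slc7a11 and the genes with a motif match were named after their values were seen. Of the pathway genes the rule names, 1 is not reported here. Of 169 listed genes 3 matched by an older symbol and 4 were not matched and not used here. Markers were of neutrophils, granulocyte precursors, plasma cells, B lineage, plasmacytoid dendritic cells, monocytes, macrophages, erythroid cells, eosinophils, basophils and mast cells, and T and NK cells.

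Samples with the same replicate number deviated together for IMQ against untreated in Bmal1 Mye-/- (correlations over genes of 0.128 to 0.426, all above 0.1). The numbers were treated as possible pairs there, on the data alone, since the sample titles state no pairing. Single correlations reached 0.384 for IMQ in WT and 0.343 between the IMQ-treated genotypes, so such values also arose elsewhere. Reported values come from the fit without the block, and the fit with it is an alternative. The block spans all 4 groups, so it also joins WT with knockout mice and does not test pairs in Bmal1 Mye-/- alone. Correlations were permuted inside groups, which treats same-numbered libraries of different groups as independent.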

Additional observations from a re-analysis of the deposited data

Results flagged for a closer look

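In groups of 5, a mouse was marked where its gap to the nearest other mouse exceeded Dixon's 95% critical value of 0.71 times the range of its group. Of 40 groups (10 genes in 4 groups) 10 were marked, each for a high value. For normally distributed values chance marks about 1 in 20. CPM were used without logarithms and can be skewed to high values, so that rate need not hold here. Untreated WT 3 was high for Pdia4 (53.7 CPM, others 21.1 to 26.0), Sdf2l1 (25.9 CPM, others 9.39 to 12.7), Creld2 (37.2 CPM, others 18.4 to 22.1) and Manf (41.7 CPM, others 23.2 to 27.7). This library also had the highest plasma cell marker sum, 1420 CPM, and the highest granulocyte precursor sum of the untreated libraries, 1180 CPM. IMQ-treated Bmal1 Mye-/- 1 was high for Hsp90b1 (308 CPM, others 124 to 171), Pdia4 (44.1 CPM, others 13.4 to 20.1), Sdf2l1 (54.7 CPM, others 12.0 to 17.2) and Manf (57.2 CPM, others 28.3 to 33.5), and it had the highest monocyte and precursor marker sums, 1520 and 1650 CPM. The part of those cells in the levels was not tested. The same libraries recur across genes that vary together, so these marks are not independent. IMQ-treated WT 1 was high for Hspa5 (424 CPM, others 236 to 277), and IMQ-treated Bmal1 Mye-/- 3 for Dnajb9 (46.3 CPM, others 19.8 to 26.7).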

How the results depend on the processing

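Of 1490 fitted changes of the 10 genes under alternatives, 1431 kept direction and side of the threshold, 41 changed sign, 8 lost and 10 gained the call. Of the 2 calls, beside 23.5% of all genes in that contrast, Dnajb9 was lost in 1 of 30 alternatives and Ddit3 in 7. Those 30 include leaving out each WT library, which lies outside that contrast. Each of 5 mice a group counts for much, and the cause of the changes below was not tested.

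Genes of the 10 called with IMQ in Bmal1 Mye-/- numbered 2, and 1 without IMQ-treated WT 5 and Bmal1 Mye-/- 2, 0 without the 3 untreated libraries, and 1 to 3 with each library left out. In WT they numbered 0, and 1 with 10 counts in every library, with DESeq2, with RLE factors and without the 2 IMQ libraries, and 0 to 2 with each library left out. Pathway genes called in Bmal1 Mye-/- numbered 24, and 12 in the linear model, 0 without the 3 untreated libraries and 13 to 33 with each left out (13 without IMQ-treated 5, 14 without untreated 4). In WT they numbered 5, and 14 without the 2 IMQ libraries, 0 without the 3 untreated ones, 9 with DESeq2, 2 with only the 2 groups compared, 1 with the replicate block, 3 without TMM factors and 0 to 12 with each left out: 12 without IMQ-treated WT 5, 9 without IMQ-treated Bmal1 Mye-/- 1, 0 without IMQ-treated WT 1, 2 or 3 or untreated WT 2, 3 or 4, 1 without IMQ-treated WT 4 or untreated WT 5, and 3 without untreated WT 1 or untreated Bmal1 Mye-/- 4 or 5. For the genotypes under IMQ they numbered 0, and 3 with DESeq2 and 0 to 12 with each left out (12 without IMQ-treated WT 3, 4 without IMQ-treated Bmal1 Mye-/- 4). Over all genes, leaving out the 3 untreated libraries gave 114 calls in Bmal1 Mye-/- in place of 3292, and 5 in WT in place of 554; WT counts were also 1480 with DESeq2, 190 with the replicate block, 186 with only the 2 groups, 326 with no filter, 2129 without the 2 IMQ libraries and 48 to 1989 with each left out. Genotype calls under IMQ were 41, and 311 with DESeq2, 16 with only the 2 groups, 22 and 23 without the added sets of libraries and 20 to 3129 with each left out. Untreated genotype calls were 29, and 59 with only the 2 groups and 11 without the 3 untreated libraries.

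Signs changed only among changes that were not called. Without TMM factors the values were 0.087 for Hspa5 between genotypes under IMQ, 0.017 for its interaction, -0.001 for Atf4 and -0.010 for Manf in WT with IMQ, and 0.011 for Pdia4 in Bmal1 Mye-/- with IMQ. The linear model gave 0.047 for Hspa5 between genotypes under IMQ, and -0.038 for Atf4 and -0.082 for Manf in WT with IMQ. Manf in WT was also -0.011 with 10 counts in every library and -0.030 with the replicate block. Without the 3 untreated libraries, Atf4 was 0.11 and Dnajb9 0.19 between untreated genotypes, Sdf2l1 was 0.068 in WT with IMQ and Pdia4 0.22 in Bmal1 Mye-/- with IMQ. With each library left out, ranges that crossed 0 were, between untreated genotypes, -0.19 to 0.048 for Atf4, -0.25 to 0.081 for Dnajb9, -0.23 to 0.020 for Hsp90b1, -0.012 to 0.10 for Hspa5, -0.15 to 0.098 for Manf, -0.42 to 0.12 for Pdia4, -0.31 to 0.23 for Sdf2l1 and -0.11 to 0.041 for Xbp1. Under IMQ they were -0.037 to 0.36 for Atf4, -0.010 to 0.36 for Hsp90b1 and -0.24 to 0.039 for Hspa5. In WT with IMQ they were -0.10 to 0.16 for Atf4, -0.17 to 0.18 for Manf and -0.52 to 0.063 for Sdf2l1, in Bmal1 Mye-/- with IMQ -0.61 to 0.013 for Pdia4, and for the interaction -0.007 to 0.40 for Atf4.

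With the replicate block, Dnajb9 and Ddit3 were again called with IMQ in Bmal1 Mye-/-, 2 of the 10, and 3114 of all genes. In the other contrasts not every correlation of same-numbered libraries was above 0.1, so the numbers were not treated as pairs there. These ran from 0.0728 to 0.384 for IMQ in WT, -0.441 to 0.206 for the untreated and -0.497 to 0.343 for the IMQ-treated genotypes. The block changed no other call of the 10 genes.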

Other observations

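Of the 82 pathway genes, 62 had a promoter entry. ERSE was found in the promoters of 6 of them (Calr, Canx, Derl3, Dnajc3, Pdia6 and Syvn1), ERSE-II in 2 (Dnajb11 and Herpud1) and the UPRE in 3 (Txndc5, Ube2j1 and Vcp). The C/EBP-ATF composite site was found in 10, among them Asns, Atf3, Chac1, Slc7a11 and Trib3, and the E-box in 10, among them Cnpy2, Cnpy3 and Derl3. These genes were named after the matches were seen, and no test was run.

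Other marker lists gave few calls, and with such short lists nothing is read from the counts. Over all genes 23.5% were called for IMQ in Bmal1 Mye-/-, 3.95% for IMQ in WT and 0.292% between the genotypes under IMQ. With IMQ in Bmal1 Mye-/- mice, 3 of 8 B-lineage markers and 1 of 4 T and NK markers were called lower, as was 1 of 10 neutrophil markers. There 4 of 6 monocyte markers were called higher, although their median sum was 250 CPM treated and 310 CPM untreated. Eosinophil markers gave 1 of 5 lower in each genotype with IMQ and 2 of 5 higher in Bmal1 Mye-/- than in WT under IMQ. Erythroid markers gave 1 of 3 higher in WT with IMQ, and basophil and mast cell markers 1 of 5 higher in Bmal1 Mye-/-. Granulocyte precursor (8), plasmacytoid dendritic cell (3) and macrophage (6) markers gave 0 calls in edgeR for IMQ in either genotype and between the genotypes under IMQ. The precursor markers still had a median fitted difference of 1.12 on the log2 scale between Bmal1 Mye-/- and WT under IMQ. Kit, at -0.32, was the only negative one.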
